A study of Mus musculus with 16 samples.

Results

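Beta-defensins are small cationic peptides with a conserved set of cysteines, secreted by epithelia, where they act on microbes. In the epididymis, the duct in which sperm mature after leaving the testis, many of them are made by the lining cells, each in its own stretch of duct, and several coat the sperm surface. Many epididymal genes depend on androgens and on fluid arriving from the testis. Deletion of a group of these genes on mouse chromosome 8 is known to leave males infertile. The genes described here are the 42 of 24062 gene rows whose symbol is Defb followed by a number. They were read across 16 RNA sequencing libraries of mouse sperm, by diet and by the level of Gpx5, a secreted glutathione peroxidase of the first part of the epididymis.

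The series describes 8 mice per diet. Of the 16 libraries, 8 belong to the high-fat diet (HFD, modified D12492) and 8 to the matching control diet (CD). The males were 3 weeks old at the start and had eaten the diet for 9 weeks, and neither the strain nor a genotype is named in the labels. Motile sperm were collected in every case, with total RNA extracted after sonication and amplified as cDNA before library construction, so both diets share those steps. Gene counts ran from 1882555 in HFD 4 to 7783981 in CD 2, with libraries numbered as their titles are. Levels are CPM, which divide a count by the gene total of its library.

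Transcripts of genes typical of other cell types were present beside those of spermatids, and how they came to be there was not tested. Transcripts of 11 epididymal secretory genes, led by Spink8, Crisp1 and Wfdc13, summed to 43336 CPM or more in 14 libraries, but HFD 4 held 15477 CPM of them and HFD 8 held 9690 CPM. Transcripts of 14 late spermatid genes, led by Smcp, Odf1 and Prm2, showed the reverse order, at 14333 CPM for HFD 4, 47531 CPM for HFD 8 and at most 11022 CPM elsewhere. These libraries therefore stood apart from the others, and results are given with and without them. Among Sertoli cell genes, Amh and Fshr were at 0 counts everywhere. Sox9, Wt1 and Trf were present in every library, at up to 51.9, 23.8 and 69.7 CPM. Leukocyte genes, led by Lyz2, Cd74 and Itgam, summed to between 203 and 1158 CPM, with the highest sum in HFD 8. Duct basal and clear cell genes, led by Car2, Trp63 and Itga6, summed to between 271 and 555 CPM. In bulk RNA, fewer cells of a type and less RNA per cell cannot be told apart.

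The promoters of 4 members are shown because Defb15, Defb47 and Defb41 were among the members whose levels differed most with Gpx5, while Defb28, the most abundant member per length, did not follow it. Each window runs 5′ to 3′ from 250 bases before to 50 bases after the RefSeq start on GRCm38.p6. The windows are chr8:21932661-21932960 on the minus strand for Defb15, chr14:62997827-62998126 on the plus strand for Defb47, chr1:18265089-18265388 on the minus strand for Defb41 and chr2:152518005-152518304 on the plus strand for Defb28. Capitals mark the letters AGAACA on either strand, a hexamer bound by steroid hormone receptors such as the glucocorticoid receptor, and those of a TATA box (TATAAA on either strand).
Defb15: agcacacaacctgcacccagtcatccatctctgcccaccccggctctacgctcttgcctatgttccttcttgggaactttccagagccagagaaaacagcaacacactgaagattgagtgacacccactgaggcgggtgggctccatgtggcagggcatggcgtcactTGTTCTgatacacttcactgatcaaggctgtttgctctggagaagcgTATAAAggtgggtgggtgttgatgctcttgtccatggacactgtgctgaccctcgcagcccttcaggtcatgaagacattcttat
Defb47: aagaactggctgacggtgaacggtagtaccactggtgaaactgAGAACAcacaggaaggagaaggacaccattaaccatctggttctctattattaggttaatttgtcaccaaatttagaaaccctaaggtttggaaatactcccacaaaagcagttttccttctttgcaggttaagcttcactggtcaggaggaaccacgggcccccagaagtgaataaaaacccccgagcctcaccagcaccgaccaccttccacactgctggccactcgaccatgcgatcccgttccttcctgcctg
Defb41: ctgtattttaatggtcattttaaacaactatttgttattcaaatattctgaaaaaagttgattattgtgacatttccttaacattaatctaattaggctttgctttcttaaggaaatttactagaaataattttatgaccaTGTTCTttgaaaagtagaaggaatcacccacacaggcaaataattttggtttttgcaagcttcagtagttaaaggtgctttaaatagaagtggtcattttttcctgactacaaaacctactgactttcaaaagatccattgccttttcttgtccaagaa
Defb28: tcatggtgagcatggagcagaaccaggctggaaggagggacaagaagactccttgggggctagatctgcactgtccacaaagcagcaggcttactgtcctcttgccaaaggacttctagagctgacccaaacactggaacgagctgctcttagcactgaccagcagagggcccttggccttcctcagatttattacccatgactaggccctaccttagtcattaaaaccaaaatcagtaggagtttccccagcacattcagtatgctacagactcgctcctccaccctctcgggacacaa

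The windows of Defb15, Defb47 and Defb41 each hold 1 such hexamer, and that of Defb15 also holds a TATA box, while that of Defb28 holds neither. RefSeq gave 30 windows for 29 members. The hexamer AGAACA, read on both strands, was in 18 of the 30 windows (60.0%), against 18.97% of 32851 windows of the same length. Base composition differs between these sets, with a median GC content of 48.3% in the members' windows and 52.7% in all. Among the 7581 windows with a GC content between 44.4% and 51.0%, the middle range of the members, 25.7% held the hexamer. Genes with it included Defb39, whose level differed little with Gpx5, as well as Defb20, Defb21 and Defb30. Defb11, Defb23, Defb26 and Defb43, with lower medians in Gpx5-high libraries, also held it, as did Defb3, Defb7, Defb8 and Defb46, with few or no counts. Defb13 and Defb42, with higher medians in Gpx5-high libraries, did not hold it. Defb12, Defb18 and Defb19 had no window. Defb21 also had a window without the hexamer. In its other window, and in those of Defb7 and Defb39, the hexamer lay after the RefSeq start. The hexamer was thus found in members with higher, similar and lower medians in Gpx5-high libraries. Whether it was more frequent in any of these groups was not tested. The full palindrome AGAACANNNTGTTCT was in 0 of the members' windows and in 3 of all windows (0.00913%). The ETS-type core AGGAAG, read on both strands, with letters bound by factors such as Etv5, was in 11 member windows (36.7%) and in 35.4% of all windows. The TATA box was in 5 member windows (16.7%) and in 13.6% of all. Members are not independent here, since neighbours arose by duplication.

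The 42 genes lie on 4 chromosomes. On chromosome 2, 11 genes lie between positions 152459055 and 152623053 of mm10. Their counts summed to between 1105 and 6221 CPM, with a median of 4586 CPM over the 16 libraries. On chromosome 8, 24 genes lie between 18974940 and 21948850, with a summed level of 362 to 5006 CPM and a median of 2119 CPM. On chromosome 14, 5 genes lie between 62977524 and 63058149, with 173 to 6120 CPM and a median of 2345 CPM. The remaining pair, Defb18 and Defb41, lies on chromosome 1 between 18236473 and 18265138, with 0 to 166 CPM and a median of 30.4 CPM. The chromosome 8 genes are thus the most numerous, while the chromosome 2 genes had the highest median sum.

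Levels of different genes were compared per kb of exon. Defb28 had the highest median, 3221 CPM per kb, with 537 to 4958 over the libraries. Defb23 followed with 2008 CPM per kb and Defb22 with 1379 CPM per kb. Defb22 encodes a glycoprotein of the sperm coat and is the mouse counterpart of human DEFB126. These leading genes are all in the chromosome 2 cluster, and their ranges over libraries overlapped. Next came Defb39 (1056 CPM per kb) and Defb38 (1055 CPM per kb) on chromosome 8, then Defb30 on chromosome 14 (965 CPM per kb). Defb37, Defb21, Defb26, Defb43 and Defb29 followed, at medians of 835, 753, 656, 498 and 477 CPM per kb. Defb1, which is made in many epithelia, had a median of 64.3 CPM per kb, and Defb14, the counterpart of human beta-defensin hBD-3, had 106 CPM per kb. The ranges over libraries of neighbours in this order overlapped.

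**Figure D1:**
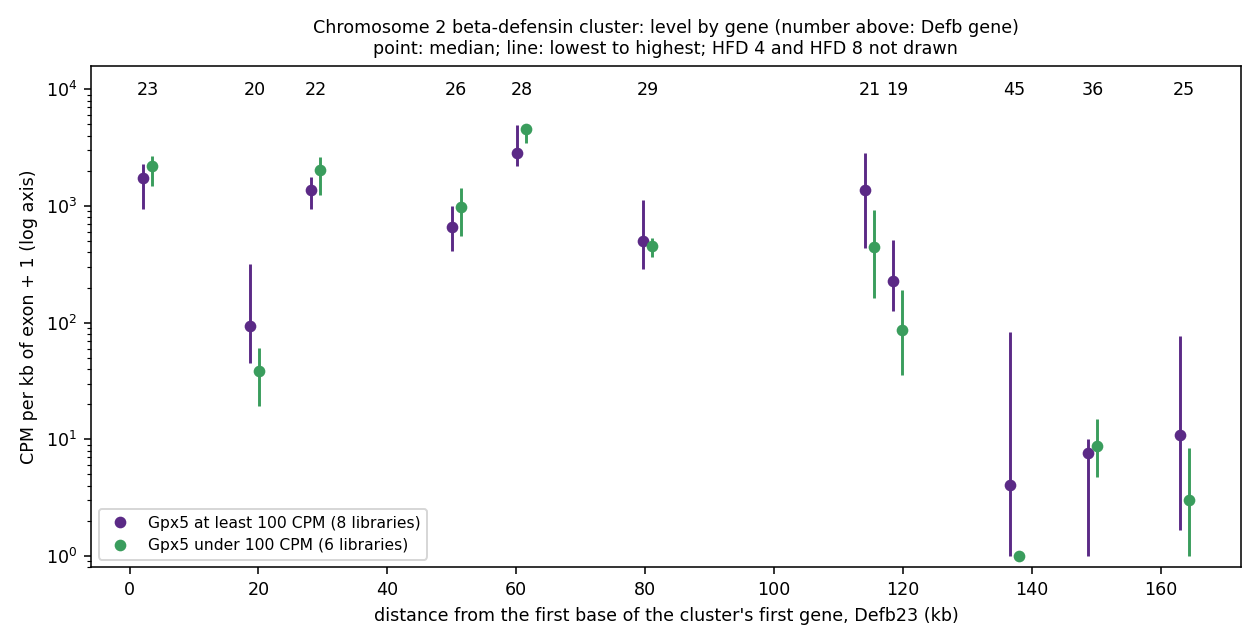
Level of the 11 chromosome 2 beta-defensin genes in CPM per kb of exon plus 1 (log axis) against distance along the cluster in kb, for the 8 libraries with Gpx5 of at least 100 CPM and the 6 under 100 CPM. Points are medians and lines run from the lowest to the highest library, with HFD 4 and HFD 8 not drawn. Defb28, Defb23 and Defb22 lie highest, and Defb25 and Defb45 lie low within the same cluster.

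Expression within the clusters was uneven. On chromosome 8, the counts of Defb3, Defb4, Defb5, Defb6, Defb7, Defb8, Defb34, Defb35 and Defb46 reached at most 8 in any library. Defb4, known as an inducible gene of airway epithelium, had 1 count in HFD 5 and 0 elsewhere. Defb5 and Defb46 had 0 counts in all 16 libraries, which allows up to 0.0504 CPM over the libraries together (3 counts, counting error alone). Defb50 reached 18 counts in CD 4 and at most 4 in any other library. Defb25 reached 76 counts in CD 6, and Defb45 reached 131 counts in HFD 5. These 12 genes did not pass the expression filter, and the other 30 were tested.

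Some counts cannot be assigned to a single gene with certainty. Defb30 and Defb42 overlap on opposite strands, and whether counting used strand is not given in the sources used here. Their reads cannot be told apart where they overlap. Defb15, Defb36 and Defb41 each overlap another annotated gene. Defb2, Defb9, Defb10 and Defb11 share 20.7%, 9.96%, 16.9% and 19.8% of their 50-base words with each other, so the division of reads among them is uncertain. Defb12 shares 3.14% of its words, with Defb35 among others.

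The summed beta-defensin level of the diets overlapped. It ran from 1755 to 13003 CPM in HFD libraries with a median of 9646 CPM, and from 6262 to 16497 CPM in CD libraries with a median of 9167 CPM. The means were 8311 ± 4189 CPM (SD, n = 8) in HFD and 9661 ± 3401 CPM (SD, n = 8) in CD, a difference of -0.22 on the log2 scale that is smaller than the spread. HFD 4 with 1755 CPM and HFD 8 with 1962 CPM were the lowest of all libraries, and without them the HFD mean was 10461 ± 1538 CPM (SD, n = 6) and the log2 difference 0.11. The drop in these libraries went with their low epididymal sum and high spermatid sum, and its source was not tested.

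No beta-defensin gene passed the test for diet. With edgeR's quasi-likelihood test and Benjamini-Hochberg adjustment over 13149 genes, 0 of the 30 tested members and 0 genes in all were called at an adjusted p of 0.05, a background of 0.0%. At an unadjusted p under 0.05 there were 2 members of 30 (6.67%) and 1482 of all genes (11.3%), so the members' share was not above that of the table. Of the members, 10 had a positive and 20 a negative log2 fold change, with a median of -0.09 against -0.0042 for all genes. Without HFD 4 and HFD 8, 22 were positive and 8 negative, with a median of 0.19, so the majority sign turned. It also turned in limma-voom (25 positive and 5 negative) and without CD 2 or without CD 3 alone (16 positive and 14 negative each), and in edgeR without HFD 4 or without HFD 8 alone (18 positive and 12 negative each), so the members had no settled direction.

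**Figure D2:**
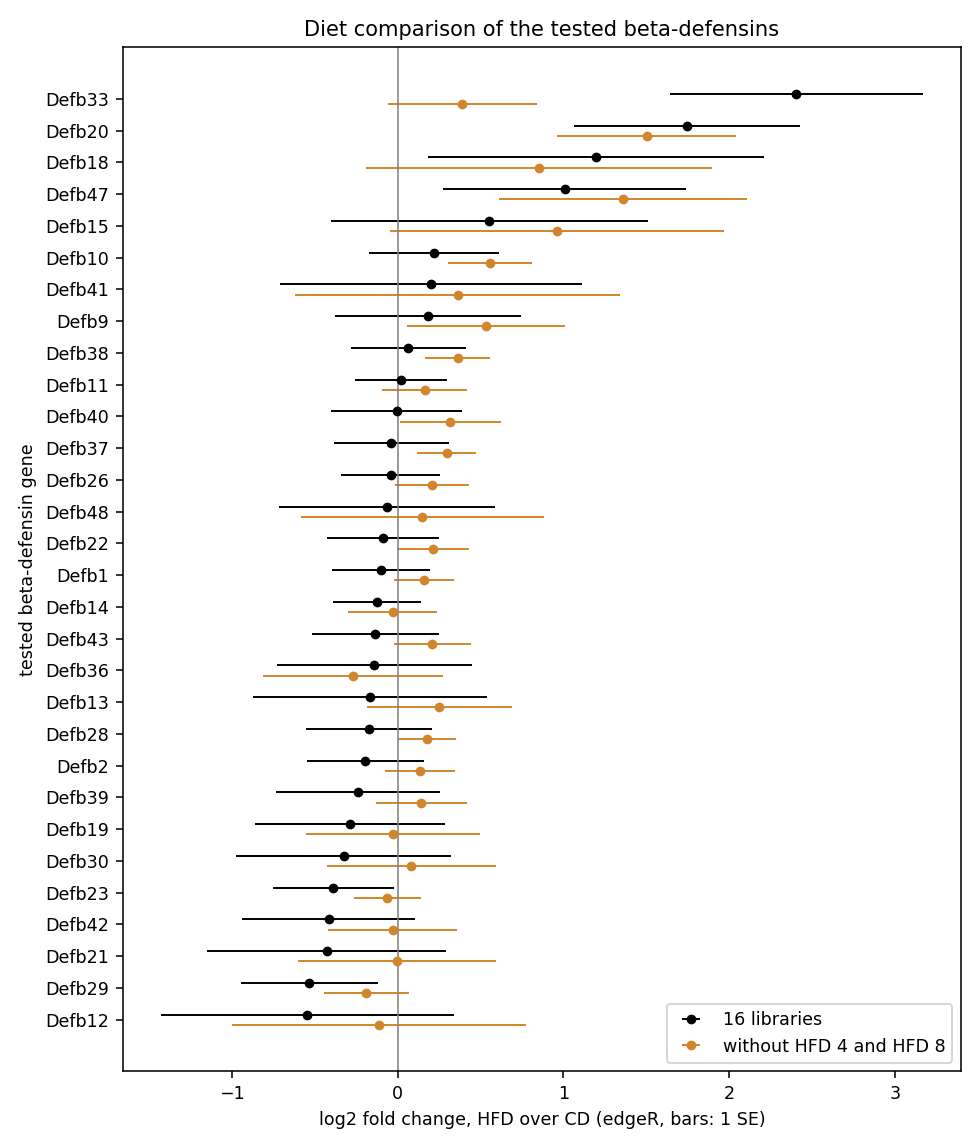
Log2 fold change of HFD over CD for the 30 tested beta-defensins, with bars of 1 SE, fitted by edgeR on 16 libraries (black) and without HFD 4 and HFD 8 (orange). Most points lie within 1 SE of 0, and Defb33 moves from 2.41 to 0.39 when those libraries are left out.

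The members with the smallest unadjusted p were Defb33 and Defb20. Defb33, on chromosome 8 at 20892669 to 20897723, ran from 4.24 to 172 CPM in HFD libraries with a median of 11.0 CPM. In CD libraries it ran from 1.68 to 10.8 CPM with a median of 6.66 CPM. The high values came from HFD 8 (172 CPM) and HFD 4 (44.1 CPM), the libraries with the highest spermatid sums, and no other library was above 16.1 CPM. The log2 fold change was 2.41 ± 0.76 (SE, edgeR adjusted p = 0.434), and it was 0.39 without both and 1.09 without HFD 8 alone.

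Defb20, on chromosome 2 at 152477063 to 152479934, ran from 1.06 to 340 CPM in HFD libraries with a median of 63.7 CPM. In CD libraries it ran from 12.6 to 82.9 CPM with a median of 30.6 CPM. HFD 8 (340 CPM), HFD 6 (221 CPM) and HFD 5 (197 CPM) were above every CD library, while HFD 4 was the lowest of all, so the diets overlapped. The log2 fold change was 1.74 ± 0.68 (SE, edgeR adjusted p = 0.434). It was 1.504 without HFD 4 and HFD 8, 1.79 among libraries with Gpx5 of at least 100 CPM and 0.32 among those under 100 CPM, and the difference between these last values was not tested.

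Only 4 other members had a log2 fold change larger than its SE, and none was called. Defb47 had 1.01 ± 0.73 (edgeR adjusted p = 0.642) and Defb18 had 1.20 ± 1.02 (edgeR adjusted p = 0.701). Single libraries carried much of this, since Defb47 was at 0.49 without HFD 6 and 0.66 without HFD 5. Defb18 was at 0.62 without HFD 8, 0.78 without HFD 6 and 1.99 without CD 2. Defb29, a ligand known to draw dendritic cells through Ccr6, had -0.53 ± 0.41 (edgeR adjusted p = 0.667), with -0.19 without HFD 4 and HFD 8 and -0.29 without CD 2. Defb23 had -0.39 ± 0.36 (edgeR adjusted p = 0.731), with -0.06 without HFD 4 and HFD 8, -0.25 without HFD 4 and -0.23 without HFD 8. The remaining 24 members had log2 fold changes between -0.54 (Defb12) and 0.55 (Defb15), with edgeR adjusted p-values from 0.789 to 0.997.

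The abundant members showed the size of the spread. Defb28 ran from 213 to 1968 CPM in HFD libraries (median 1318 CPM) and from 879 to 1854 CPM in CD libraries (median 1279 CPM). Defb22 ran from 197 to 1639 CPM in HFD libraries (median 883 CPM) and from 589 to 1592 CPM in CD libraries (median 850 CPM). Defb12 varied more than either, from 11.7 to 1700 CPM in HFD libraries (median 263 CPM) and from 94.6 to 3455 CPM in CD libraries (median 322 CPM). In each of these genes the diets overlapped over most of their range.

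The epithelial members and the closely related group at the end of the chromosome 8 cluster were lower and also overlapped. Defb1 ran from 10.1 to 77.0 CPM in HFD libraries and from 41.3 to 85.2 CPM in CD libraries. Defb14 ran from 11.4 to 29.8 CPM in HFD libraries and from 12.8 to 36.5 CPM in CD libraries. Defb2, an inducible gene of epithelia, had means of 96.1 ± 56.9 CPM in HFD and 110 ± 31.4 CPM in CD (SD, n = 8). Its relatives Defb10 and Defb11 had means of 19.7 ± 11.6 and 47.8 ± 17.0 CPM in HFD and of 16.9 ± 6.02 and 47.4 ± 19.8 CPM in CD. Defb36, the lowest of the tested members per length, stayed between 0 and 7.19 CPM in HFD and between 0 and 6.48 CPM in CD. On simulated data with 13149 genes and this design, 6 of 50 genes changed 2-fold and 38 of 50 changed 4-fold were recovered, so a small diet difference may go undetected at this spread.

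**Figure D3:**
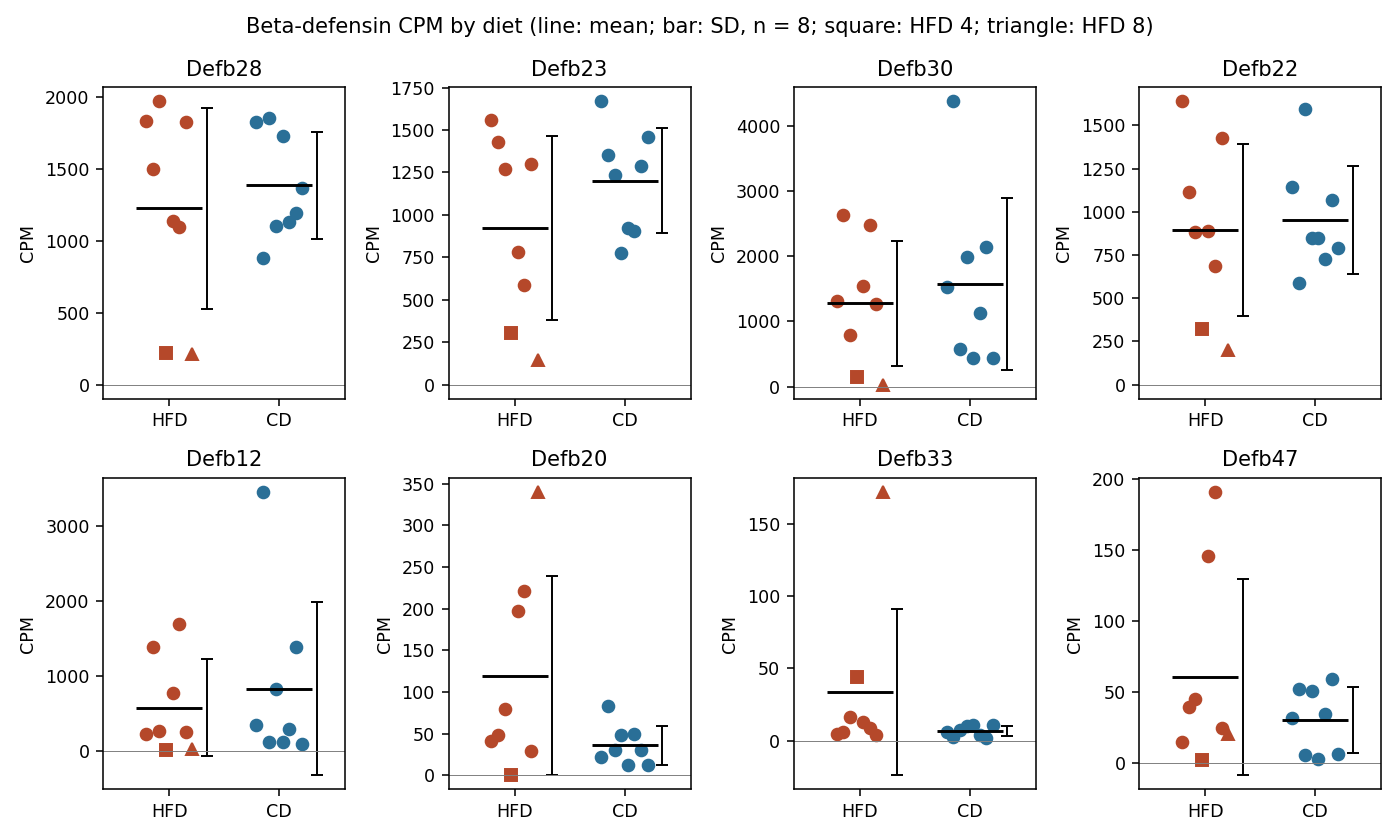
CPM of 8 beta-defensins in each HFD and CD library, with the mean (line) and SD (bar, n = 8). HFD 4 (square) and HFD 8 (triangle) lie at the bottom for Defb28, Defb23, Defb30, Defb22 and Defb12, and HFD 8 lies at the top for Defb20 and Defb33.

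The libraries also differed in their level of Gpx5. It was at 100 CPM or more in 9 libraries (5 HFD and 4 CD) and below it in 7 (3 HFD and 4 CD). The lowest values above the limit were 246 CPM in CD 6 and 260 CPM in HFD 3, and the highest below it was 28.4 CPM in CD 1, so limits of 50 or 200 CPM give the same classes. The classes come from a measured gene, so the values that follow are a description with no test. Of the initial segment and caput list, 13 genes other than Gpx5 summed to between 389 and 1134 CPM in the Gpx5-high libraries and to between 174 and 444 CPM in the Gpx5-low ones, so these sums overlapped. Single markers did not all follow Gpx5. Ros1 ran from 10.1 to 410 CPM in the Gpx5-high libraries and from 52.1 to 206 CPM in the Gpx5-low ones, Lcn12 from 101 to 290 CPM against 10.1 to 129 CPM, and Lcn9 was at 0 in 5 of the 9 Gpx5-high libraries. The epididymal secretory sum overlapped between the classes.

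The beta-defensin sum as a whole did not separate the classes. Without HFD 4 and HFD 8 it ran from 6992 to 16497 CPM in 8 Gpx5-high libraries and from 6262 to 11140 CPM in 6 Gpx5-low libraries. In these libraries, the ratio of the Gpx5-high to the Gpx5-low median was over 2 for 11 of the 30 tested members (36.7%), against 313 of 13149 genes (2.38%). It was over 1 for 17 members and under 1 for 13, against 5616 and 7532 of all genes, with a median of 1.10 against 0.961. Ratios under 1 were thus no more frequent among the members than in the table.

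Defb15, on chromosome 8 at 21929799 to 21932710, showed the clearest order. It was at 15.0 to 234 CPM in the 8 Gpx5-high libraries (median 85.8 CPM) and at 1.35 to 14.2 CPM in the 6 Gpx5-low libraries (median 9.98 CPM), a ratio of medians of 8.60. Just above the Gpx5 limit, CD 6 had 15.0 CPM and HFD 3 had 24.9 CPM, and just below it CD 1 had 14.2 CPM, so these libraries were close to each other. Defb47, on chromosome 14 at 62998077 to 63001160, was at 34.4 to 191 CPM (median 51.1 CPM) in the Gpx5-high libraries. In the Gpx5-low libraries it was at 2.43 to 31.6 CPM (median 10.3 CPM), a ratio of 4.94. Every Gpx5-high library was above every Gpx5-low one for these 2 members and for 21 of all genes (0.16%). Those 21 include these 2 members and Gpx5, which defines the classes. The reverse held for 0 members and 13 genes (0.0989%).

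With all 16 libraries no member kept its classes apart. For Defb15 (4.58 CPM) and Defb47 (19.9 CPM) the overlap came from HFD 8, which was low in them although its Gpx5 was 1754 CPM. Defb41, Defb18 and Defb20 overlapped through CD 1, CD 6 and CD 7 instead. Over the 16 libraries 0 members and 6 genes, Gpx5 among them, were higher throughout (0.0456%), and 0 members and 1 gene were lower throughout (0.00761%).

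The pair on chromosome 1 had the largest ratios. Defb18 was at 5.56 to 86.9 CPM in the 8 Gpx5-high libraries (median 20.0 CPM) and at 0 to 8.71 CPM in the 6 Gpx5-low ones (median 0.632 CPM), a ratio of 31.7 that rests on a median of few counts. Defb41, whose locus has been used to drive Cre in principal cells of the caput, was at 10.5 to 88.8 CPM (median 58.9 CPM) against 0.279 to 29.3 CPM (median 2.86 CPM), a ratio of 20.6. For both genes CD 1, the Gpx5-low library with the most Gpx5, held the highest value of its class, and it lay above the lowest Gpx5-high library. The same library was also the highest of its class for Defb12, Defb15, Defb19 and Defb47. It was so too for members with ratios under 1, such as Defb23 (1669 CPM) and Defb26 (800 CPM), and for the beta-defensin sum (11140 CPM). In CPM its place was thus not particular to members that followed Gpx5. As a percent of the beta-defensin counts, CD 1 was the highest Gpx5-low library for Defb12 (3.15%), Defb18 (0.0782%), Defb19 (0.664%), Defb41 (0.263%) and Defb47 (0.284%). It was so too for Defb39 (3.22%), which had a ratio of 1.13. By that measure it was not the highest for Defb23, Defb26, Defb15 or Defb21.

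More abundant genes followed with smaller ratios. Defb12, on chromosome 8, was at 267 to 3455 CPM (median 1108 CPM) in the Gpx5-high libraries and at 94.6 to 351 CPM (median 176 CPM) in the Gpx5-low ones, a ratio of 6.29. Defb21 and Defb19, neighbours on chromosome 2, had ratios of 3.07 and 2.69, and Defb20 had 2.48. Defb13 had 2.31, and the overlapping pair Defb30 and Defb42 had 2.25 and 2.20. Over all 16 libraries the ratios were 6.50 for Defb12, 4.32 for Defb21, 4.46 for Defb19 and 3.54 for Defb20. They were 2.05 for Defb13, 3.47 for Defb30 and 3.36 for Defb42. Defb30 reached 4373 CPM in CD 2. The classes overlapped in each of these genes.

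Members on the other side had ratios closer to 1. The lowest was Defb40, at 92.8 to 413 CPM (median 122 CPM) in the Gpx5-high libraries and 154 to 265 CPM (median 236 CPM) in the Gpx5-low ones, a ratio of 0.52. Defb28 had a ratio of 0.62, with 879 to 1968 CPM (median 1135 CPM) against 1364 to 1854 CPM (median 1825 CPM). Over all 16 libraries these ratios were also 0.52 and 0.62, with Defb40 at 37.3 CPM and Defb28 at 213 CPM in HFD 8. Defb22 and Defb26 had 0.67 each, Defb11 had 0.68, Defb43 0.71, Defb38 0.74, Defb37 0.75, Defb14 0.78 and Defb23 0.79. Neighbours on a chromosome thus fell on both sides, as Defb20 and Defb22 did.

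Shares of the beta-defensin counts remove the total from the comparison, and that total was low in HFD 8 (1962 CPM). There Defb15 was below CD 1 in CPM (4.58 against 14.2 CPM) but above it in share (0.233% from 14 counts against 0.128%). On the share scale, chosen after the data were seen, 4 members were higher in every Gpx5-high than in every Gpx5-low library over all 16 libraries, namely Defb15, Defb18, Defb19 and Defb47. With counts scaled in the same way 10 of all genes did so (0.0761%), these 4 members and Gpx5 among them. In the other direction, 10 genes and 0 members were lower throughout (0.0761%). Defb15 made up 0.215% to 2.56% of the beta-defensin counts in the 9 Gpx5-high libraries and 0.0204% to 0.135% in the 7 Gpx5-low ones. Defb19, a gene described in the testis as well as the epididymis, made up 0.669% to 2.48% against 0.0908% to 0.664%, so its classes nearly touched. Defb18 was separated by less than counting error, with 0.0795% in CD 6 (20 counts, 95% Wilson interval 0.0515% to 0.123%) and 0.0782% in CD 1 (30 counts, 0.0548% to 0.112%). For Defb47 the nearest libraries were HFD 2 at 0.303% (0.264% to 0.347%) and CD 1 at 0.284% (0.236% to 0.342%). For Defb19 they were HFD 2 (0.610% to 0.733%) and CD 1 (0.588% to 0.751%). For Defb15 they were CD 6 (0.164% to 0.280%) and HFD 7 (0.0991% to 0.185%). The intervals of the nearest libraries thus overlapped for each of these members. Defb28 made up 5.33% to 22.3% against 12.5% to 26.1%, and the classes overlapped.

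**Figure D4:**
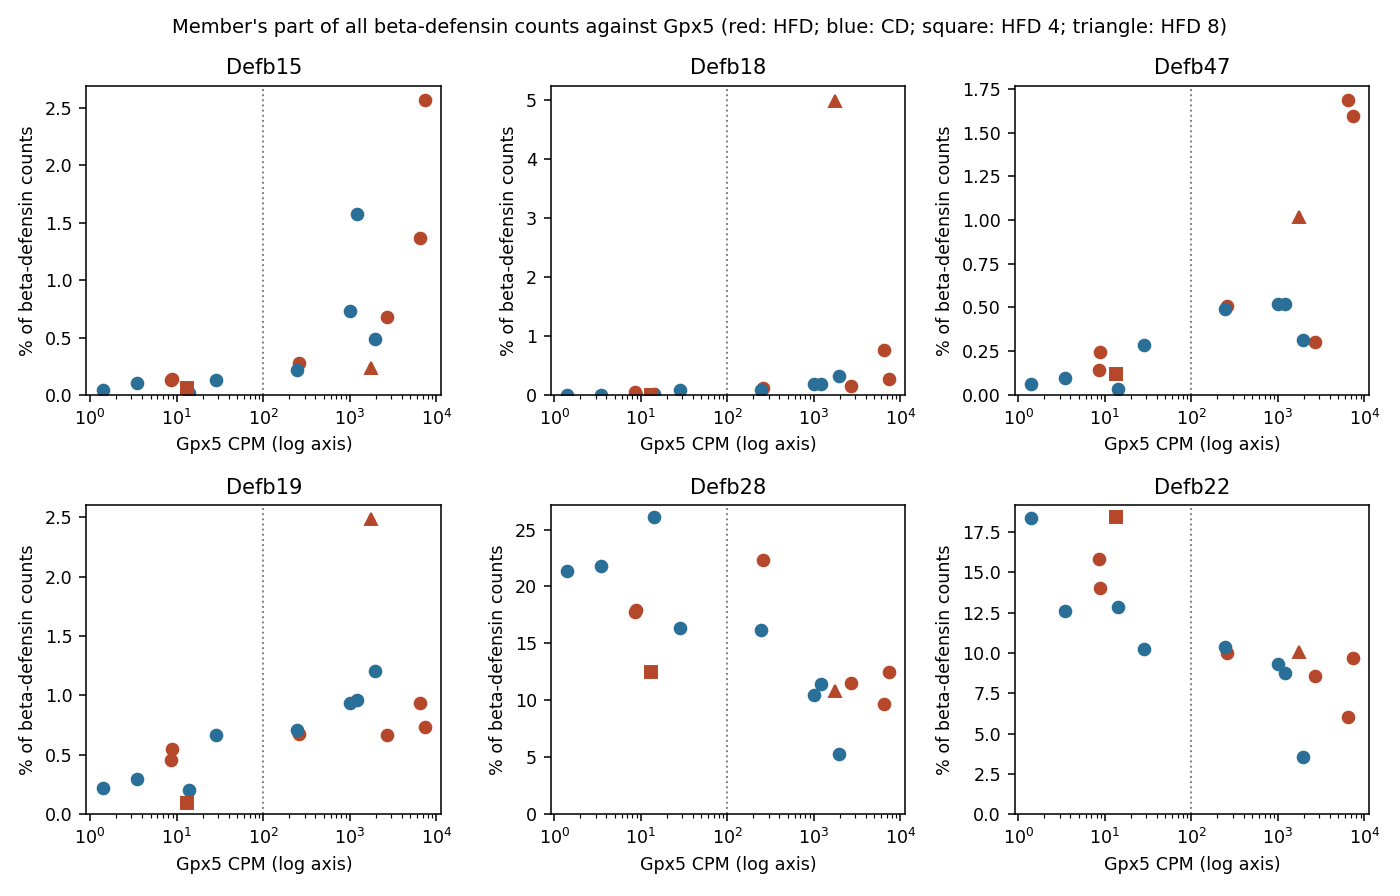
Percent of all beta-defensin counts contributed by 6 members in each of 16 libraries, against Gpx5 CPM (log axis, dotted line at 100 CPM). Defb15, Defb18, Defb47 and Defb19 lie higher to the right of the line, while Defb28 and Defb22 lie mostly lower.

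HFD 8 had a composition of its own. Defb20 made up 17.3% of its beta-defensin counts (95% Wilson interval 16.4% to 18.3%), Defb33 8.76% (8.07% to 9.50%) and Defb18 4.998% (4.47% to 5.58%). Defb30 made up 1.599% (1.31% to 1.95%). In HFD 4, which also held much spermatid RNA, Defb20 made up 0.0605% (0.0166% to 0.220%), Defb33 2.51% (2.03% to 3.10%) and Defb30 8.66% (7.74% to 9.66%). The intervals cover counting error alone, since amplified copies are not independent molecules. Cst11, a cystatin of the epididymis, was at 95.1 CPM in HFD 8 and at 0 in HFD 4.

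A further set of low members was high in a few libraries, a pattern noticed after the values were seen. Defb25, which did not pass the filter, was highest in HFD 5 (22.1 CPM), CD 6 (21.1 CPM), HFD 6 (14.6 CPM) and HFD 3 (3.50 CPM), and at most 2.26 CPM elsewhere. Lcn9, a lipocalin of the initial segment, was at 33.8, 57.2, 40.6 and 4.6 CPM in the same libraries and at most 0.54 CPM elsewhere. Defb48, on chromosome 14, was highest in CD 6 (69.5 CPM) and HFD 5 (47.8 CPM), and at most 20.8 CPM elsewhere. Defb45 was highest in HFD 5 (48.1 CPM) and HFD 6 (17.2 CPM), followed by HFD 8 (6.54 CPM) and HFD 2 (5.43 CPM). It was at 1.94 CPM in CD 6 and at 0 in HFD 3 and CD 7, so it shared only part of that order, and it was at 0 in all 7 Gpx5-low libraries.

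Genes related to the beta-defensins by place or role gave 0 calls for diet in edgeR. Of 17 antimicrobial genes 11 were tested, 7 with a positive and 4 with a negative log2 fold change and a median of 0.51, and Reg3g was at 0 throughout. Spag11a, Wfdc15b and Lyz2 were the most abundant of them. Spag11a, a beta-defensin-like gene of the chromosome 8 cluster, was at 690 ± 425 CPM in HFD and 763 ± 449 CPM in CD (SD, n = 8). Of 14 defensin receptor and signalling genes 10 were tested, 4 positive and 6 negative, with a median of -0.19, and Traf6, Rela and Il1r1 were the most abundant. Ros1, the receptor through which testicular fluid keeps the initial segment differentiated, was at 199 ± 136 CPM in HFD and 217 ± 139 CPM in CD (SD, n = 8).

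The marker lists gave 0 calls for diet as well. The log2 fold change was positive for 14 of 14 late spermatid genes with a median of 1.22. HFD 8 and HFD 4 carried that sum, since the median of the sums was 5309 CPM in HFD and 5010 CPM in CD, and 4436 CPM in HFD without them. The log2 fold change was negative for 9 of 11 epididymal secretory genes with a median of -0.23. The median of their sums was 69718 CPM in HFD and 69185 CPM in CD, and 73471 CPM in HFD without HFD 4 and HFD 8. Of the initial segment and caput genes 8 were tested, 5 positive and 3 negative, with a median of 0.40. For leukocyte genes 9 of 10 were positive with a median of 0.52. The median of the leukocyte sums was 802 CPM in HFD, 778 CPM in HFD without HFD 4 and HFD 8, and 543 CPM in CD. The leukocyte sums of the diets overlapped. For duct basal and clear cell genes 2 of 8 were positive, with a median of -0.18. The part of these lists in the beta-defensin values was not tested.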

How the data were processed

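Raw read counts per gene symbol, 1 column per library, are what the authors deposited. HTSeq 1.0.0, STAR, mm10 and DESeq2 1.0.19 are named, per the submitters' processing notes. The annotation counted against, and its use of strand, is not given in the sources used here. The 5 summary rows of the counting program, among them reads in no feature (58.0% to 76.1% of a library's reads), stayed out of totals and tests. Gene counts were 1882555 to 7783981 per library, 8.02% to 20.1% of its reads, so precision differs between libraries, and amplification from 2 ng of RNA without named molecular identifiers means that counting errors are lower limits.

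CPM are counts over the gene total. Diets were compared with edgeR 4.0.16 under R 4.3.3 by the robust quasi-likelihood test, with TMM factors, filterByExpr by diet, diet as the sole term, two-sided, with Benjamini-Hochberg adjustment over 13149 genes. DESeq2 1.42.0, limma 3.58.1 voom, other scalings and filters, and leaving out libraries were alternatives. The step was tested on simulated data for this comparison of 13149 genes, which gave 4 false calls, and 1 call with no gene changed. Every tested beta-defensin was named; untested ones with at least 10 counts in some library are given by their values; up to 3 of the most abundant tested genes of each list were named, apart from 1 gene and the lists that hold it, which are not reported here. The members and gene lists were chosen with earlier results of these data known. Gpx5 classes use 100 CPM. Positions come from GENCODE M21, promoters from RefSeq (GRCm38.p6).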

Additional observations from a re-analysis of the deposited data

Results flagged for a closer look

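In 9 of 62 gene and diet groups tested, 1 library lay far from the other 7 of its diet. The test used flags about 1 in 20 normally spread, independent groups by chance; these groups are neither, so its rate here is not known. CD 2 accounted for 4 of them: Defb12 was at 3455 CPM (next 1392 CPM), Defb30 at 4373 CPM (next 2139 CPM), Defb29 at 521.1 CPM (next 289.8 CPM) and Defb18 at 51.9 CPM (next 21.02 CPM). CD 2 was also the deepest library, with 7783981 gene counts.

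Defb33 was at 171.9 CPM in HFD 8, with 44.09 CPM in the next library, HFD 4. Defb48 was at 47.78 CPM in HFD 5 (next 20.85 CPM) and at 69.45 CPM in CD 6 (next 14.97 CPM). Defb9, which shares stretches of sequence with Defb2, Defb10 and Defb11, was at 57.09 CPM in HFD 3 (next 21.2 CPM) and at 27.02 CPM in CD 3 (next 13.49 CPM).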

How the results depend on the processing

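The count of genes called for diet was 0 in edgeR under every scaling, filter, library set and leave-one-out fit run, and in limma-voom; DESeq2 called 1 gene of 13149, which is no beta-defensin, with 1820 genes at an unadjusted p under 0.05 against 1482 in edgeR, 488 in limma-voom and 292 in edgeR without HFD 4 and HFD 8. The title numbers did not pair the libraries: same-numbered libraries deviated with a correlation from -0.40 to 0.61, and 2 of 8 numbers had their own number as best partner. With the number as a replicate block 0 genes were called and 314 had an unadjusted p under 0.05, with a log2 fold change of 1.16 for Defb20 and 1.33 for Defb33. No log2 fold change of the 6 members larger than its SE reversed. Of the other 24, 23 changed sign under at least one setting, 12 of them without HFD 4 and HFD 8 and 17 in limma-voom, so their direction was not settled.

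The count of members higher in every Gpx5-high library was 0 with 16 libraries, 2 without HFD 4 and HFD 8, and 4 on shares of the beta-defensin counts, a scale chosen after seeing the data. Leaving out 1 library gave 0 to 2: Defb15 and Defb47 without HFD 8, and 1 gene each without CD 1 (Defb41), CD 6 (Defb18) or CD 7 (Defb20). The log2 difference of the summed level ran from -0.34 to 0.11. Of the tested members, Defb13, Defb18, Defb36 and Defb41 had 0 counts in 1 or 2 libraries, so their folds are imprecise.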

Other observations

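Spag11b, a beta-defensin-like gene of the epididymis, has a symbol outside the family rule. It was highest in HFD 5 (632 CPM), HFD 8 (545 CPM), HFD 6 (379 CPM) and HFD 2 (139 CPM), at 11.2 to 46.4 CPM in the other 5 Gpx5-high libraries and at 0.531 to 6.30 CPM in the 7 Gpx5-low ones, so the Gpx5 classes did not overlap. Its log2 fold change of HFD over CD was 4.22 ± 1.11 (SE, edgeR adjusted p = 0.434). Spag11a, its neighbour, was lowest in HFD 8 (15.0 CPM) and HFD 4 (76.0 CPM), and at 218 to 1363 CPM elsewhere. Spag11b was singled out after its values were seen, and neither gene was called for diet.

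The pseudogene Defb44-ps, also outside the rule, was at 0 to 7.8 CPM.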
